A study of Mus musculus with 3 samples.

Results

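The unfolded protein response genes described here are 10 mouse genes: Xbp1, Atf4, Atf6, Ern1, Eif2ak3, Ddit3, Ppp1r15a, Herpud1, Calr and Edem1. They were chosen by name, among 23458 genes named on the array, and every array probe whose RefSeq transcript carries one of these names was used. This gave 16 probes, with 1 probe for 5 of the genes and several for the other 5. All 16 probes were above background on all 3 arrays, so no member was lost to a filter on low signal.

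Each array held RNA from 1 pool of 30 expanded blastocysts of ICR mice. The mothers were 3 to 6 weeks old for the young group and 43 to 53 weeks old for both aging groups. All females were superovulated and mated, and zygotes taken 18 h after hCG were cultured for 96 h in KSOM medium. The young and aging groups had no further treatment. In the suppressed aging group, CXCL5-CXCR2 signaling was blocked with 10 μg/ml of an anti-CXCL5 neutralizing antibody together with 10 nM of a CXCR2 antagonist, so the antibody and the antagonist cannot be told apart, and no young group received them. CXCL5 is a secreted chemokine and CXCR2 its receptor, and the study treated this signaling as part of the senescence-associated secretions of aging embryos. With 1 pool per condition there is no error between embryos, no test and no P-value, and embryos of different mothers within a pool cannot be told apart.

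Proteins that enter the secretory pathway fold in the endoplasmic reticulum (ER). When unfolded proteins build up there, sensors in the ER membrane start the unfolded protein response. IRE1, encoded by Ern1, cuts the Xbp1 mRNA so that it encodes an active transcription factor. PERK, encoded by Eif2ak3, phosphorylates the translation factor eIF2α, which slows protein synthesis but favours translation of ATF4. ATF6 is cut in the Golgi and releases a transcription factor of its own. Their targets include chaperones such as BiP, encoded by Hspa5, enzymes of ER-associated degradation (ERAD), and CHOP, encoded by Ddit3, which is linked to cell death. The blastocyst holds trophectoderm and inner cell mass, and its trophectoderm and primitive endoderm are secretory. Much of this response acts by splicing, cleavage, phosphorylation and translation, which an array of transcript levels does not measure.

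Binding motifs of these factors were looked for in RefSeq promoter windows of GRCm38.p6, from 250 bases before to 50 after each annotated start, on both strands. Windows were given for 9 of the 10 genes, all but Atf6. The ER stress element (ERSE: CCAAT, 9 bases of any kind, CCACG), through which ATF6 and XBP1 act, was in 39 of 32851 windows (0.119%). Its second form (ERSE-II: ATTGG, 1 base of any kind, CCACG) was in 12 windows (0.0365%), the UPR element TGACGTGG in 222 (0.676%) and the C/EBP-ATF element TGATGNAA, which ATF4 binds, in 1304 (3.97%). Of the 9 genes, Calr held an ERSE, and Herpud1 held an ERSE-II and a C/EBP-ATF element. The other 7 had none of the 4 motifs in this window. The stretches around the motifs are printed below because they hold every motif found among the 9 genes. The ERSEs of the chaperones Hspa5 and Hsp90b1 are printed beside them, since Calr holds the same kind of element. Herpud1 shares none of its motifs with these 3. Each is written 5′ to 3′ on the strand of its gene with 20 bases on either side, and capitals mark the motifs. Where a motif lies on the opposite strand, its reverse complement is in capitals.
Herpud1, chr8:94386297-94386407, plus strand, with the C/EBP-ATF element first and the ERSE-II second: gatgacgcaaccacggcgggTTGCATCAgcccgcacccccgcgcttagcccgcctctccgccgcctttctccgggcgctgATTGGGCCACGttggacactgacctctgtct
Calr, chr8:84847055-84847113, minus strand, with the ERSE reversed: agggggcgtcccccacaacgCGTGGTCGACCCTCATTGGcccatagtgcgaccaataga
Hspa5, chr2:34772005-34772063, plus strand: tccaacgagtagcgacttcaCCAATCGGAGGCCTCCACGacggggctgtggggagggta
Hsp90b1, chr10:86705513-86705676, minus strand, with the second ERSE reversed: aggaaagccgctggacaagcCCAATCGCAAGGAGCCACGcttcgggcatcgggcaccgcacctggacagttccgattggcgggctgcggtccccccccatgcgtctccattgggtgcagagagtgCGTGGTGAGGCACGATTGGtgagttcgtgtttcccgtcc

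**Figure D1:**
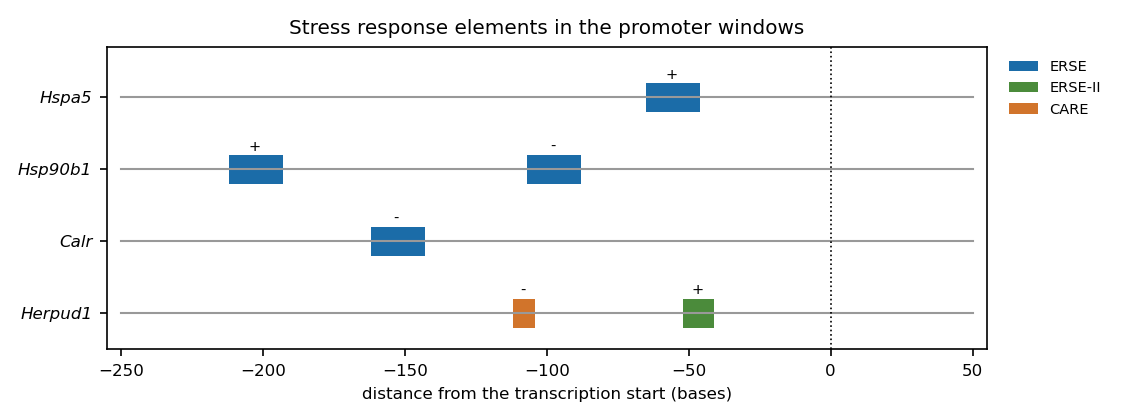
Motifs found in the promoter windows of Hspa5, Hsp90b1, Calr and Herpud1, against the distance from the annotated transcription start in bases. Bars are motifs and the sign above each is its strand relative to the gene, with the ERSE of Hspa5 at -65 to -47, that of Calr at -162 to -144 and the ERSE-II of Herpud1 at -52 to -42.

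Levels below are log2 signals minus the 75th percentile of the array, an intensity of 122 to 155. A level therefore compares 1 probe across arrays and not 1 gene with another. The scanner software's error for the signal of a spot gave each difference between 2 arrays of a member probe an SD of 0.20 to 0.24 on the log2 scale. On each array this error was 0.144 for the probes of Atf4 and Calr alike, so it is the software's estimate and not a spread measured here. Replicate spots of a probe on an array gave a difference a typical SD of 0.07. Neither covers the amplification of the RNA or the embryos. The aging array enters both the comparison with young and the comparison with suppressed aging, so an odd value on it moves both in opposite directions.

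The probes for the blastocyst's own cell types were present: all 8 trophectoderm, all 6 inner cell mass and all 5 primitive endoderm markers were above background on all 3 arrays. Of 8 cumulus and granulosa cell markers, 5 (Fshr, Has2, Inha, Ptx3 and Tnfaip6) were not above background on any array. The other 3, Amh, Cyp19a1 and Foxl2, were above it on all 3 arrays, and the list summed to 405 times the 75th percentile in young, 374 in aging and 438 in suppressed aging blastocysts, nearly all of it from Foxl2 (levels of 8.66, 8.54 and 8.77). Oocyte transcripts summed to 0.71 on the same scale in young, 1.90 in aging and 0.745 in suppressed aging blastocysts, with 4, 5 and 3 of 8 above background and Mos, Oosp1 and Zp1 above it on none. Blood transcripts summed to 0.968, 1.77 and 0.513 (2, 3 and 1 of 5 above background, and Hbb-bt and Ptprc on none). The oocyte and blood lists were highest on the aging array and the cumulus list was lowest there. The part of these cells in the results below was not tested.

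In the comparison of aging with young blastocysts, 2 of the 10 genes differed over 2-fold. Each was read by the probe with the highest mean level over the arrays, so the choice of probe uses the values compared. The share among all 16164 genes compared was 19.0%. Eif2ak3 was higher in aging blastocysts by this probe (0.35 on its other one), and Edem1 was lower by this probe but higher by its other one. The Eif2ak3 probe so chosen was the dimmer of the 2 in young and the brighter in aging blastocysts. The median difference of the 10 genes was -0.01, beside 0.03 over all genes, with 4 genes higher and 6 lower. Of the 16 probes, 4 differed over 2-fold (all probes 21.1%) and 7 by less than 0.5 on the log2 scale.

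Between suppressed aging and aging blastocysts, 2 of the 10 genes differed over 2-fold (all genes 17.3%). By the probes so chosen, Atf4 was higher and Eif2ak3 lower after suppression (0.04 and -0.62 on their other probes). The median was 0.30 beside -0.00 over all genes, and 7 genes were higher and 3 lower. Of the probes, 3 of 16 differed over 2-fold (all probes 19.0%). Between suppressed aging and young blastocysts, 2 of 10 genes differed over 2-fold (all genes 16.3%), Atf4 and Ern1, both higher in the suppressed group. The median was 0.09 beside 0.03 over all genes, and 3 of 16 probes differed over 2-fold (all probes 18.1%).

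**Figure D2:**
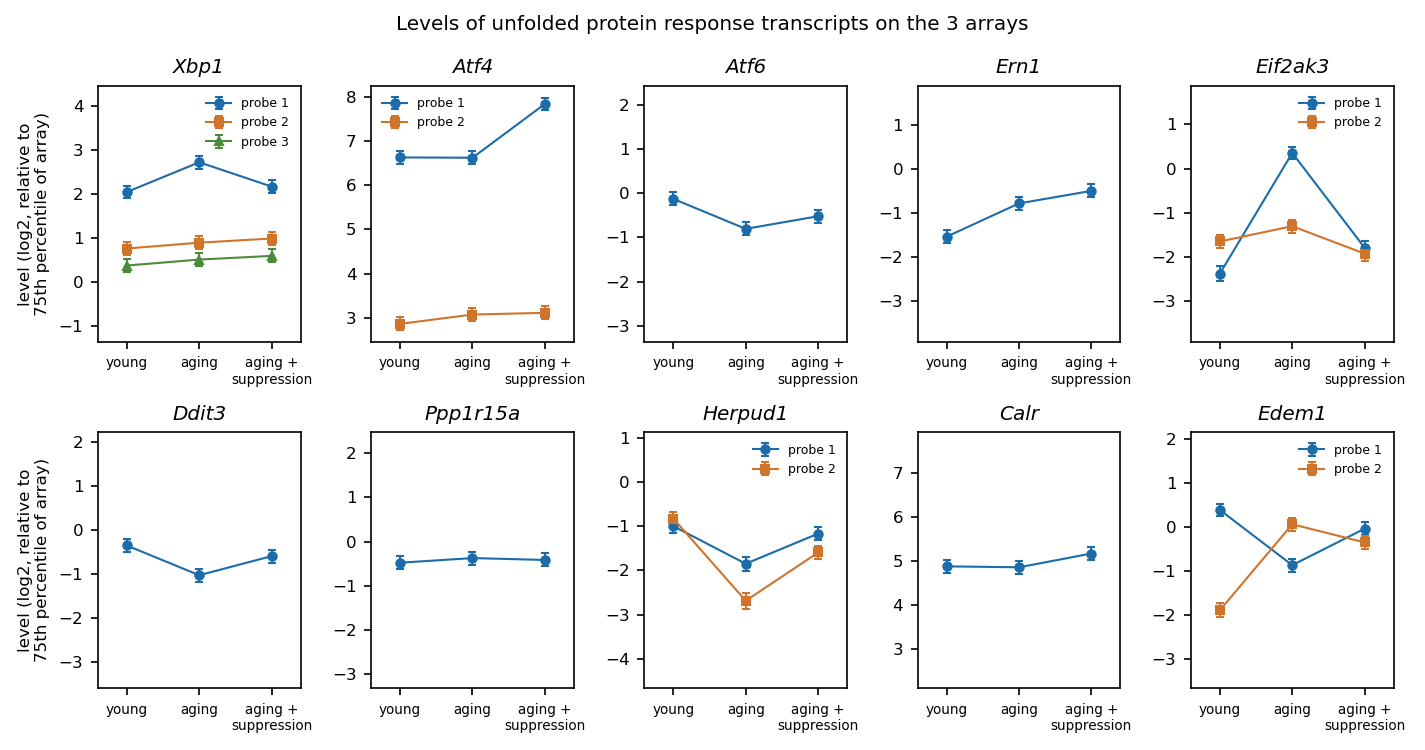
Levels of the 16 probes of the 10 genes on the 3 arrays (vertical axis, log2 signal relative to the 75th percentile of the array; every panel spans the same number of log2 units). Each line is 1 probe, numbered by mean level, and bars are the scanner software's SD, with 1 array per condition. Ppp1r15a and Calr stay within 0.31 across arrays, and the first Eif2ak3 probe stands out on the aging array at 0.35.

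How often a 2-fold difference arises depends on the signal. All genes compared between aging and young were split by mean level into 4 bins of equal number. The share that differed over 2-fold was 31.8% in the lowest bin, 24.99% in the second, 13.6% in the third and 5.82% in the highest. The probes that stand for Atf4, Calr and Xbp1 lay in the highest bin, and those of the other 7 members, Eif2ak3 and Edem1 included, in the second.

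Among the sensors, Eif2ak3 gave the difference of greatest size of any member. PERK, its product, is the kinase that slows translation. The probe with the higher mean level (A_55_P2727489) had levels of -2.38 in young, 0.35 in aging and -1.80 in suppressed aging blastocysts, which are intensities of 27.8, 197 and 35.2. It was high on the aging array alone. The difference was 2.74 between aging and young (6.67-fold) and -2.15 between suppressed aging and aging (4.44-fold lower), and 0.59 remained between suppressed aging and young. After normexp, a background correction that shrinks differences of dim probes, the first 2 became 1.53 and -1.19. The second probe (A_55_P2048744), designed on another RefSeq transcript of the gene, had levels of -1.65, -1.31 and -1.93. It was also highest on the aging array, but by 0.35 over young and by 0.62 over suppressed aging. Both probes thus ordered the aging array first, and they differed by 2.39 on the log2 scale in the size of the difference from young. Which transcripts each probe reads was not tested.

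Ern1 encodes IRE1. Its single probe had levels of -1.54 in young, -0.79 in aging and -0.50 in suppressed aging blastocysts, so that it was lowest in the young. The difference was 0.75 (1.69-fold) between aging and young, 0.28 between suppressed aging and aging, and 1.04 (2.05-fold) between suppressed aging and young. The last lies just past 2-fold, and it became 0.99 in the authors' own processed values and 0.51 after normexp.

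Atf6, the Golgi-activated sensor, had levels of -0.13 in young, -0.80 in aging and -0.52 in suppressed aging blastocysts. It was lowest on the aging array, 0.68 below young (1.60-fold), and the suppressed array lay between, 0.29 above aging and 0.39 below young. The 3 sensors therefore did not share an order: Ern1 and Eif2ak3 were lower in young than in aging blastocysts and Atf6 was higher.

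Of the transcription factors, Xbp1 was read by 3 probes of the same RefSeq transcript. The first (A_55_P1994032) had levels of 2.04 in young, 2.71 in aging and 2.16 in suppressed aging blastocysts. It was highest on the aging array, by 0.67 (1.60-fold) over young and by 0.55 (1.47-fold) over suppressed aging. The second (A_55_P2739653) had levels of 0.76, 0.89 and 0.98, and the third (A_52_P185079) of 0.37, 0.51 and 0.59. On these, aging exceeded young by 0.13 on either probe, and suppressed aging exceeded aging by 0.09 and 0.08, all within the scanner's SD. All 3 probes were higher in aging than in young blastocysts, 2 of them by less than that SD, and the lower level after suppression was seen on the first probe only. None of them is known here to tell the spliced from the unspliced mRNA.

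Atf4 encodes the factor that is translated when eIF2α is phosphorylated. Its first probe (A_55_P1979728) had levels of 6.63 in young, 6.63 in aging and 7.84 in suppressed aging blastocysts. It was level between young and aging (a difference of -0.01) and higher by 1.22 (2.33-fold) after suppression than before. Among genes in the highest bin of signal, 4.46% differed over 2-fold in that comparison. The second probe (A_52_P139727) had levels of 2.86, 3.07 and 3.11, a difference of 0.04 between suppressed aging and aging. The 2-fold difference in Atf4 thus rests on 1 of 2 probes.

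Ddit3 encodes CHOP, a factor induced late and tied to cell death. Its levels were -0.36 in young, -1.03 in aging and -0.60 in suppressed aging blastocysts, lowest on the aging array. Aging was 0.67 below young (1.60-fold), and suppressed aging was 0.43 above aging and 0.24 below young. These sizes were all under 2-fold.

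Ppp1r15a encodes GADD34, the subunit that directs phosphatase to eIF2α and so restores translation. Its levels of -0.48, -0.37 and -0.42 were within 0.10 of each other, under the scanner's SD. No difference beyond that SD was seen.

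Calr encodes calreticulin, a calcium-binding lectin chaperone, and its promoter window holds the ERSE printed above. Its levels were 4.87 in young, 4.85 in aging and 5.17 in suppressed aging blastocysts. Young and aging differed by -0.02, within the scanner's SD, and suppressed aging was higher than aging by 0.31 (1.24-fold).

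Herpud1 encodes HERP, an ER membrane protein that serves ERAD, and carries the ERSE-II and the C/EBP-ATF element printed above. Its first probe (A_51_P434101) had levels of -0.997 in young, -1.85 in aging and -1.17 in suppressed aging blastocysts. The second (A_55_P2810587) had levels of -0.82, -2.69 and -1.59. Both were lowest on the aging array.

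Aging Herpud1 levels were below young by 0.85 (1.81-fold) on the first probe and by 1.86 (3.64-fold) on the second. Suppressed aging exceeded aging by 0.68 (1.61-fold) and 1.10 (2.14-fold) and lay below young by 0.17 and 0.77. Herpud1 was the only member of several probes on which every probe gave the same direction in all 3 comparisons. For suppressed aging against young, the first probe's -0.17 was within the scanner's SD and became 0.03 after normexp. After normexp the second probe differed by -0.73 between aging and young and by 0.51 between suppressed aging and aging.

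Edem1 encodes a lectin that hands misfolded glycoproteins to ERAD. Its first probe (A_52_P354520) had levels of 0.39 in young, -0.86 in aging and -0.03 in suppressed aging blastocysts, lowest on the aging array. The second (A_51_P503866) had levels of -1.88, 0.07 and -0.35, lowest on the young array. The 2 probes gave -1.25 (2.38-fold lower) and 1.95 (3.86-fold higher) for aging against young, and 0.83 and -0.41 for suppressed aging against aging. They disagreed in direction by far more than the scanner's SD, so these arrays give no direction for Edem1. After normexp the first probe's difference between aging and young was -0.75, under 2-fold.

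**Figure D3:**
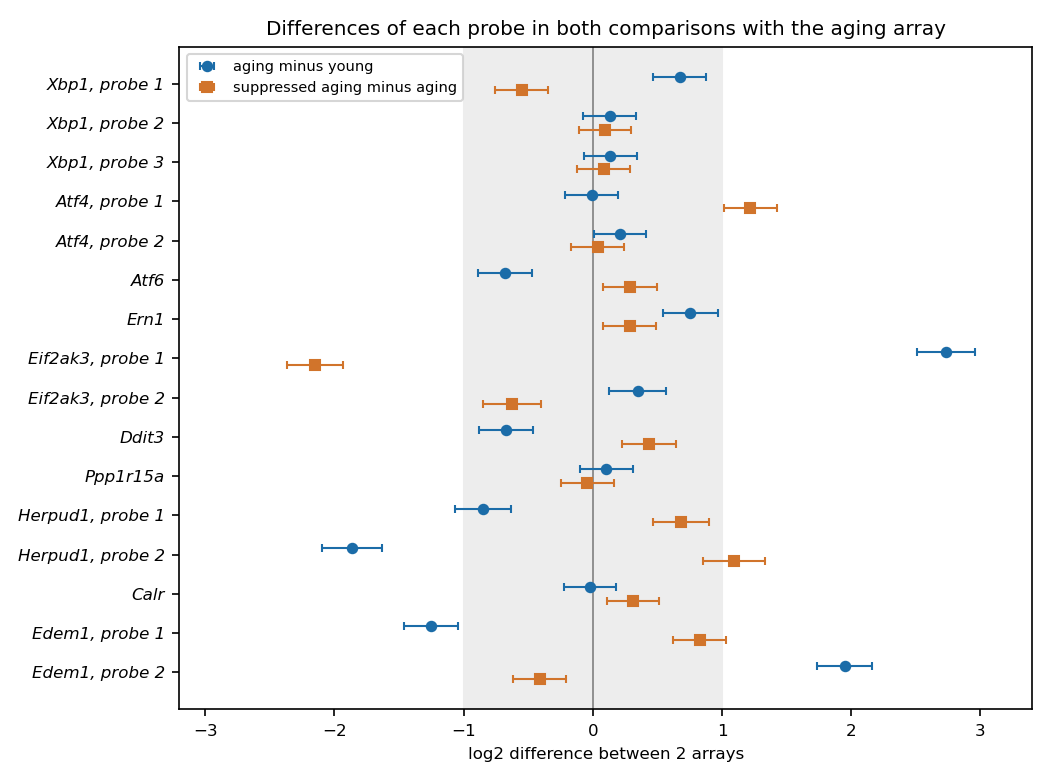
Log2 difference of each of the 16 probes between aging and young (circles) and between suppressed aging and aging (squares), with the scanner software's SD as bars and 1 array per condition. The shaded band marks less than 2-fold, and the aging array is in both series of points. The 2 Edem1 probes lie at -1.25 and 1.95 for aging minus young, and the 2 Herpud1 probes at -0.85 and -1.86.

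Across the 5 genes with several probes, the probes gave 1 direction for 3 genes and differing directions for 2 in each of the comparisons. This was a general property of the arrays. Among all genes with several probes, directions differed for 2387 of 4861 between aging and young. They differed for 2451 of 4830 between suppressed aging and aging, and for 2400 of 4817 between suppressed aging and young. Among 670 genes that differed over 2-fold between aging and young by their first probe and had another that could be compared, the second probe had the same direction in 59.3% and was over 2-fold in that direction in 20.3%. After suppression these shares were 60.6% and 18.4% of 571 genes. The median spread between 2 probes of a gene was 0.54 for aging against young, which is over the scanner's SD of a member's difference.

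The wider pathway was read through 90 other genes in 4 groups. In the comparison of aging with young, 13 of the 85 that could be compared differed over 2-fold (7 higher and 6 lower). The same count was 11 of 86 for suppressed aging against aging and 13 of 86 for suppressed aging against young. These are shares of 15.3%, 12.8% and 15.1%, none above the share over all genes, which is not matched for signal. Between aging and young, the highest bin of signal held 14, 9, 12 and 4 genes of the groups, in the order given below. The third bin held 6, 13, 3 and 10. Over all genes, 5.82% differed over 2-fold in the highest bin and 13.6% in the third.

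ER chaperones and folding enzymes were mostly lower in aging than in young blastocysts. Of 23 compared, 16 were lower and 7 higher, with a median of -0.23 beside 0.03 over all genes, of which 48.1% were lower. Hspa5, which encodes BiP, the chaperone that holds the sensors inactive, had levels of 5.48 in young, 4.30 in aging and 4.95 in suppressed aging blastocysts on its first probe. It was lowest on the aging array, by 1.18 (the 2 other probes by 0.36 and 0.68), and 3 of 3 probes had this direction. Suppressed aging exceeded aging by 0.65, 0.38 and 0.52 on these 3 probes.

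Hsp90b1, which encodes the ER chaperone GRP94, had levels of 6.52, 6.14 and 6.31, so that aging was 0.38 below young and suppressed aging 0.17 above aging, the latter within the scanner's SD. Pdia3, a disulfide isomerase for glycoproteins, was lower in aging blastocysts by 0.82 and 0.97 on its 2 probes. Manf, a secreted ER stress protein, was lower by 0.57 and 1.06. Of the 23 chaperones, 14 lay in the highest bin of signal, where 2-fold differences were rarest.

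Not all chaperones had this order. Canx, which encodes calnexin, was higher in aging than in young blastocysts by 0.47 and 0.15. Ero1a, an oxidase that is also induced by hypoxia, was higher by 1.38 on its single probe, and Fkbp11, a prolyl isomerase, by 1.47 at a dim signal (levels of -3.91 and -2.44). Sil1, an exchange factor of BiP, was 0.64 higher by 1 probe and 1.90 lower by the other. Of the 10 chaperone genes with several probes, all probes were lower for 4 (Hspa5, Manf, Pdia3 and Uggt1), all higher for 4 (Canx, Dnajb9, Dnajc10 and Hyou1) and mixed for 2. This count was made after the values were seen. Over all 4861 genes with several probes, all probes were lower for 24.8% and all higher for 26.1%. The first Hyou1 probe differed by 0.008 only.

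After suppression, 14 of 23 chaperones were higher than in aging blastocysts and 9 lower, with a median of 0.14 beside -0.00 over all genes. Among those above background on both arrays, Hspa5, Uggt1, which senses the folding of glycoproteins, and P4hb, a disulfide isomerase, had the highest differences, of 0.65, 0.46 and 0.41, all under 2-fold. The lowest were of like size: Fkbp11 (-0.57), Dnajc10 (-0.50 on its first probe) and Ero1a (-0.45). Against young, 13 of 23 were lower in the suppressed group (median -0.04 beside 0.03). The counts lower were 8 to 11 after suppression and 12 to 16 against young over the alternative ways of processing, so that the order after suppression came to 12 higher and 11 lower at its closest.

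Markers of the embryo's own cell types also differed between the arrays, and not all in the direction of the chaperones. Inner cell mass markers summed to 1034 times the 75th percentile in young, 1248 in aging and 1149 in suppressed aging blastocysts. Most of this sum came from Nanog (levels of 9.88, 10.14 and 10.03). By gene, 6 of 6 were higher in aging than in young and lower in suppressed aging than in aging. Trophectoderm markers summed to 498, 378 and 446, mostly from Krt18 and Krt8 (levels of 8.05 and 6.66 in young). By gene, 5 of 8 were lower in aging than in young and 7 of 8 higher after suppression. Primitive endoderm markers summed to 16.3, 19.5 and 16.2. Fewer cells of a type and less RNA per cell cannot be told apart in pooled embryos, and the part of the cell types in the chaperone levels was not tested.

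**Figure D4:**
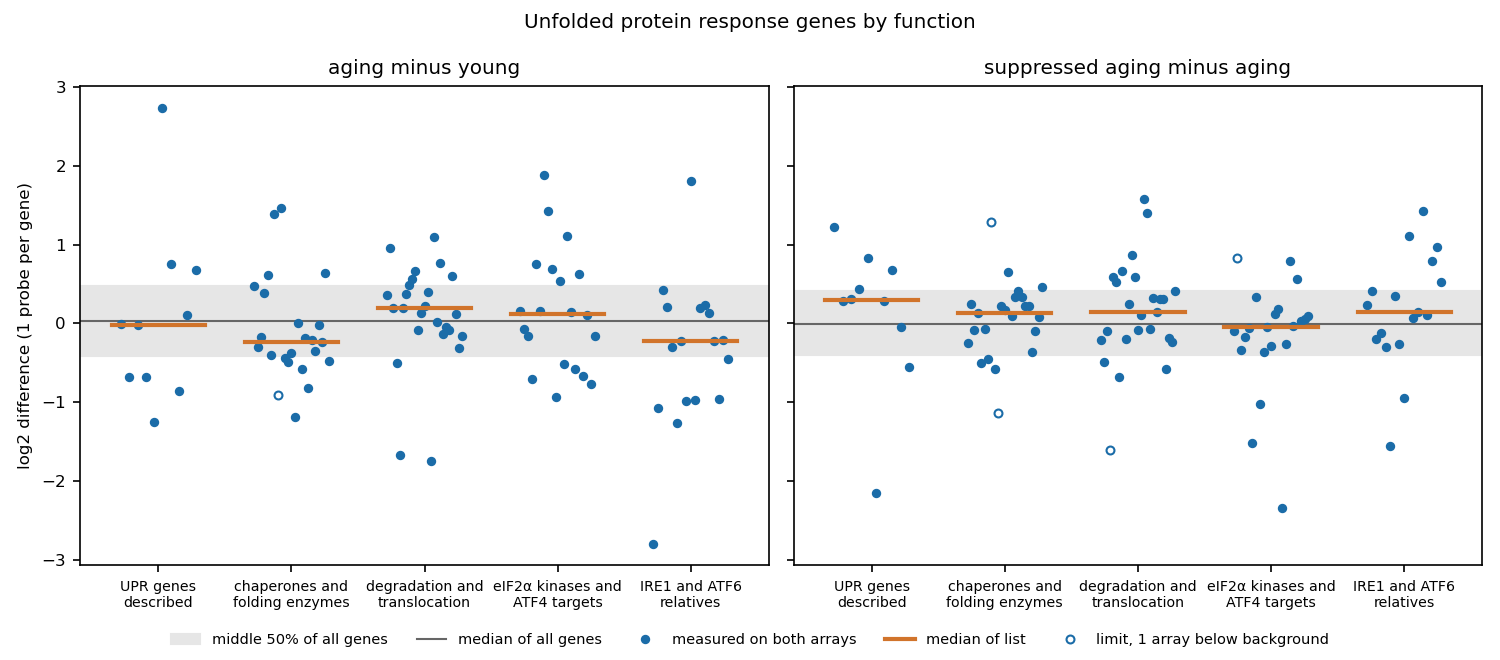
Log2 differences of the 10 genes and of the 4 other groups for aging minus young (left) and suppressed aging minus aging (right), 1 probe per gene. Points are genes, open where 1 array was below background and the value is a limit, thick bars are group medians, and the grey band holds the middle 50% of all genes. The chaperone median lies at -0.23 on the left and 0.14 on the right, both inside the band.

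ERAD and translocation genes had a median of 0.19 for aging against young, with 16 of 25 higher and 3 over 2-fold, and of 0.14 after suppression. Over all genes, 51.9% were higher and 19.0% over 2-fold, beside 12% of these 25 over 2-fold. Of the 3 genes over 2-fold, the probes of 2 went in opposite directions and those of Edem2 in 1. Sec63, a translocation factor, differed between aging and young blastocysts by -1.74 on 1 probe and by 0.08 on the other. Sel1l, the scaffold of the HRD1 ubiquitin ligase, was higher by 1.09 and lower by 0.79.

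After suppression Sel1l was higher than in aging blastocysts on both probes, by 1.40 and 2.37, and higher than in young by 2.49 and 1.58. Edem2, a relative of Edem1, was lower in aging than in young on both probes (differences of -1.67 and -0.76).

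The group of eIF2α kinases, phosphatase subunits and ATF4 targets had medians of 0.13 for aging against young (20 genes compared) and -0.04 after suppression (21 genes). Over 2-fold were 3 of the 20 (15%, all genes 19.0%) and 3 of the 21 (14.3%, all genes 17.3%). Chac1, a glutathione-degrading ATF4 target, was higher in aging than in young by 1.88 and lower in suppressed aging than in aging (-1.02). Nupr1, a stress-induced nuclear protein, was higher in aging than in young by 1.12, and differed between suppressed aging and aging by -2.34. Ddit4, an inhibitor of mTORC1 that hypoxia also induces, was higher in aging by 1.42.

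Trib3, a pseudokinase induced by CHOP, was instead lower in aging than in young (-0.77), as was Eif2ak2, the kinase that responds to double-stranded RNA (-0.93). Cebpb, a dimer partner of CHOP, was lower in suppressed aging than in aging (-1.52). Each of these genes was read by 1 probe. The first probe of Atf4 was higher after suppression (the second by 0.04) while Chac1 and Nupr1 were lower. Of the 21 genes compared, 12 were lower and 9 higher, Sesn2 (0.56) among the latter. Nupr1 was dim in suppressed aging blastocysts (-3.83, where the lowest level above background was -3.93), as was Chac1 in young (-3.01).

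Relatives and regulators of IRE1 and ATF6 had a median of -0.23 in 17 genes for aging against young (11 lower) and of 0.14 after suppression (11 higher). Over 2-fold were 4 of the 17 between aging and young (23.5%, all genes 19.0%) and 3 after suppression (17.6%, all genes 17.3%). Atf6b, the paralogue of Atf6, had levels of 4.05 in young, 1.26 in aging and 1.50 in suppressed aging blastocysts. The difference from young was -2.79 in aging and -2.55 after suppression, on 1 probe. Creb3l2, a transcription factor cleaved in the Golgi like ATF6, was lower in aging than in young (-1.26) and lower again after suppression (-1.56 from aging). Map3k5 (ASK1), a kinase downstream of IRE1, was higher in aging by 1.81 on 1 probe and lower by 0.09 on the other.

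The genes with an ERSE in their promoter window can be described without regard to the pathway lists. Of the 23 that were compared between aging and young, 17 (73.9%) were lower in aging, beside 47.9% of all genes with a window, and the median was -0.35 beside 0.03. After suppression, 15 of 23 were higher, beside 49.7% of all genes with a window, and the median was 0.25 beside -0.00. Between suppressed aging and young, 14 of 23 were lower, beside 47.1%, and the median was -0.04 beside 0.04. Of the 23, 2 differed over 2-fold between aging and young, Hspa5 and Adcy3 (8.70%, beside 18.9% of all genes with a window). Between suppressed aging and aging, 5 of 23 did so (21.7% beside 17.1%), of which 3 were lower after suppression. Of the 5, Ero1b and Derl3 gave limits only, with 1 array below background. Under the alternative ways of processing, the genes lower in aging were between 14 of 21 and 25 of 32, with medians of -0.36 to -0.25.

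The ERSE genes included 7 of the 21 chaperones with a window (Hspa5, Hsp90b1, Canx, Dnajc3, Pdia6, Ero1b and Creld2), the ERAD genes Syvn1 and Derl3, and Calr. Of these 10, 9 were lower in aging than in young, Canx being the exception, although Calr and Syvn1 differed by -0.02 and -0.05, within the scanner's SD, and Ero1b gave a limit only. Of the 13 ERSE genes outside the lists, 8 were lower and 5 higher, with a median of -0.34. The latter split was made after the values were seen, and Xlr3a and Xlr3b among the 13 are near-identical copies whose probes may read both. The 418 genes with a C/EBP-ATF element had a median of -0.03 and the 123 with a UPR element of -0.07.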

How the data were processed

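RNA of 3 pools of mouse blastocysts was hybridized to 1-colour (Cy3) Agilent arrays, which lay on 1 slide. The paper's methods describe amplification by single-primer PCR, whereas the labels name a cRNA labeling kit. The deposited intensity of each spot was background-subtracted and detrended by Agilent Feature Extraction 12.0.3.1. A table of the authors' processed values, also intensities, is the same intensity times 1 factor per array. Here control spots and 85 to 118 outlier spots per array were left out, log2 intensities of a probe's spots were averaged, and the 75th percentile of the array was subtracted. Of 56591 probes, 33759 were named through RefSeq transcripts (GRCm38.p6, used for names and promoter windows). Between 56.4% and 58.7% of probes per array were above background. A probe below it on 1 array gave a limit, set at the higher of its own signal and the lowest signal above background there. The probe with the highest mean level over the 3 arrays stood for a gene.

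Over 2-fold stood in for a call, since 1 array per condition allows no test, and the number of arrays limits the precision. The members and lists were chosen with earlier results of these data known. The genes named outside the members are Hspa5, Hsp90b1 and, from each list, some of the 3 highest and the 3 lowest in each comparison; Canx, the ERSE genes, and those counted by agreement of several probes were named after their values were seen. The alternatives tried were normexp (limma 3.58.1, offset 50), quantile normalization, other centring, the authors' processed values, keeping outlier spots, other filters, the mean over probes and a 5-fold threshold. A further blood marker is not reported here. The procedure was tested on simulated data with differences far larger than 2-fold, so the recovery of differences near 2-fold was not tested. Python 3.11.15, NumPy 2.4.6, pandas 2.3.3, Matplotlib 3.10.9 and R 4.3.3 were used.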

Additional observations from a re-analysis of the deposited data

How the results depend on the processing

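No paired analysis was possible because there was 1 array per condition, and for the same reason no array could be left out. The counts of members over 2-fold, 2 in each comparison, became 1, 0 and 0 at 5-fold (in the order aging with young, suppressed aging with aging, and suppressed aging with young), 1 in each comparison with the authors' processed values, which lack 1 Eif2ak3 probe, 1 under normexp in both comparisons with young, and 1 in both comparisons of the suppressed group with the mean over probes. With the mean over probes, the 2 members between aging and young were Eif2ak3 and Herpud1, without Edem1. The 1 member left was Eif2ak3 after suppression and Ern1 between suppressed aging and young, and Atf4 was in neither. The counts of 13, 11 and 13 other pathway genes became 1, 1 and 3 at 5-fold and 7, 4 and 4 under normexp, where the share over all genes also dropped, to 5.30%, 4.74% and 4.61%.

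The median of the members minus that of all genes was -0.0417 for aging against young, and 0.0949 with the mean over probes and 0.0937 without a filter on dim probes, so it has no settled sign. Between suppressed aging and aging it was 0.303, and 0.166 without the filter and 0.217 under normexp. Between suppressed aging and young it was 0.0581, and -0.0948 with the authors' values and 0.143 with the mean over probes. The authors' values lack the first Eif2ak3 probe, so the second probe stood for the gene there. Between suppressed aging and young the first probe gave 0.59, and the second gave -0.32 in the authors' values. The cause of these shifts was not tested. Without the filter the median of all genes moved to -0.11, 0.13 and 0.07. With the authors' values the share of higher genes among those over 2-fold after suppression went from 50.8% to 43.6%. The factor per array in those values moves the medians of members and of all genes alike. Chaperones were lower in aging than in young in 15 of 23 genes under normexp and with the authors' values, in 14 of 21 above background on all arrays, in 17 of 24 without the filter, and in 16 or 17 of 23 under the other alternatives. Under normexp the first Eif2ak3 probe's differences dropped from 2.74 to 1.53 (aging with young) and in size from -2.15 to -1.19 (suppressed aging with aging).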
